A study of Mus musculus with 2 samples.

Results

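The genes described here are 30 members of the cholesterol and fatty acid synthesis programme, chosen by symbol among the 31053 genes of the count matrices, of which 23425 had a UMI (a counted transcript molecule) in either library. They comprise 16 enzymes of sterol synthesis, 6 enzymes of fatty acid synthesis, 7 regulators and carriers of sterol, and Ch25h. All 30 were detected. The 2 single-cell libraries come from lungs of C57BL/6 mice that the labels give as having acute lung injury in both groups. WT is wild type, and KI carries the allele labelled p47phox-KI, where p47phox is the protein of the gene Ncf1, an organizer subunit of the phagocyte NADPH oxidase. How Ncf1 was altered, the agent of injury and its timing, the age and sex of the mice, and the number of animals behind each library are not given in the sources used here. Lung cells were stained for viability and with an antibody to CD45.2, a leukocyte surface antigen, and were sorted, with the gate not stated.

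Cholesterol is built from acetyl-CoA through mevalonate, isoprenoids and squalene to lanosterol, which further enzymes convert to cholesterol. When membrane sterol is scarce, the carrier SCAP takes the transcription factors SREBP1 and SREBP2 (genes Srebf1 and Srebf2) to the Golgi for cleavage, and they then induce most of these enzymes. INSIG proteins hold SCAP back when sterol is plentiful, and oxysterols such as 25-hydroxycholesterol, the product of cholesterol 25-hydroxylase (Ch25h), strengthen that hold and also activate the liver X receptors (LXR), which induce the exporter Abca1. In lung, alveolar type 2 cells make the fatty acids and lipids of surfactant.

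Each group is 1 library, so no difference between them has a replicate check and no test was possible. Intervals are 95% intervals that cover counting error only. Levels are in CPM, the usual scale of a gene's UMIs relative to all UMIs of its cell class. A ratio is the log2 of the KI over the WT level, and a gene with at least 20 UMIs in a class over both libraries counts as higher or lower when that ratio passes 0.5 in either direction. The kit reads the 3′ end of each transcript once, so levels of different genes were compared without a length term.

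The WT matrix held 10473 barcodes and 43376713 UMIs, and the KI matrix 9120 barcodes and 43445797 UMIs. The barcode filter and doublet removal left 7727 WT and 6637 KI cells, with medians of 3313 and 3769 UMIs. The libraries shared 30 barcode sequences, which were kept apart. Barcodes with a haemoglobin UMI made up 1.62% of WT and 17.2% of KI. UMIs of 4 Y-linked genes numbered 5 in WT and 185 in KI, where 55.3% of leukocytes but 0.261% of other cells had one, so leukocytes and other cells of the KI library stood apart on this measure. Ncf1 itself had 228 UMIs in WT (5.26 CPM) and 213 in KI (4.90 CPM), and a 3′ count of this gene does not show what the knock-in changed.

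Cells were grouped by clusters and named from fixed markers, with the suffix -like because markers alone support the names. The classes compared were endothelial-like (4275 WT and 3475 KI cells), fibroblast-like (1403 and 1179), smooth muscle or pericyte-like (607 and 644, called mural here), alveolar type 2-like (450 and 474) and alveolar type 1-like cells (435 and 249). All 10 endothelial, 10 mural, 8 type 2 and 9 type 1 markers were highest in their own class in both libraries, as were 9 of 10 fibroblast markers in WT and 8 of 10 in KI. Leukocyte classes, mesothelial-like and airway-like cells had fewer than 100 cells in at least 1 library and are given as levels only, and 244 WT and 426 KI cells in 5 clusters stayed unnamed.

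The promoters of 4 members with large differences and of Hmgcs1 are shown first, from RefSeq on GRCm38.p6, to set the letters of each gene's upstream region beside its values. Capitals mark the letters CCAAT, the site recognised by the factor NF-Y, and CACCCCAC, a form of the sterol regulatory element, on either strand. Ch25h is a gene of 1 exon on chromosome 19 (34473778 to 34475164, minus strand), and the window is chr19:34475165-34475398. The windows of the LXR target Abca1 (chr4:53159896-53160145, minus strand), the sterol enzyme Hsd17b7 (chr1:169969242-169969455, minus strand), the SREBP inhibitor Insig1 (chr5:28071162-28071362, plus strand) and the early sterol enzyme Hmgcs1 (chr13:119690101-119690350, plus strand, shown because it alone among the members held both motifs) end before the first annotated transcribed base.
Ch25h: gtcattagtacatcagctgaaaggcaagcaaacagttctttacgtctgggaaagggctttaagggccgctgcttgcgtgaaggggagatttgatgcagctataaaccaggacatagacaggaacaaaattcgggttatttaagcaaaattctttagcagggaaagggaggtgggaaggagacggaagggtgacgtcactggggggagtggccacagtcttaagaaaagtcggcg
Abca1: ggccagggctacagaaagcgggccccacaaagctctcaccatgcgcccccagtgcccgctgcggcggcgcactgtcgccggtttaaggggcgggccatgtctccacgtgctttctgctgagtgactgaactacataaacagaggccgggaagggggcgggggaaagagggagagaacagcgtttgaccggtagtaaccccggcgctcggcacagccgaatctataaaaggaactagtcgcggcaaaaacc
Hsd17b7: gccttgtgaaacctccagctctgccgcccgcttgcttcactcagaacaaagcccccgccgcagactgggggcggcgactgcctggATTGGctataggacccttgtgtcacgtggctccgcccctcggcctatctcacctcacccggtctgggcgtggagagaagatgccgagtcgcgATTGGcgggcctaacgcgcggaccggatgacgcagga
Insig1: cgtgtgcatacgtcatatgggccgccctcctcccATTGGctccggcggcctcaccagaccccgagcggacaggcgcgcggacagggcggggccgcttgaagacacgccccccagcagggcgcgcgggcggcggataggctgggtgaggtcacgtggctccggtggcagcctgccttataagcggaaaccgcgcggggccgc
Hmgcs1: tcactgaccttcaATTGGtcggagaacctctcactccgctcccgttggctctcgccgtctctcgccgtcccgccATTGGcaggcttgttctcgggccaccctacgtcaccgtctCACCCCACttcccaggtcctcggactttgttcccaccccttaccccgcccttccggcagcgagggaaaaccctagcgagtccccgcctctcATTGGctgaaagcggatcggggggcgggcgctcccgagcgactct
Neither set of letters occurred in the windows of Ch25h or Abca1, while Hsd17b7 held 2 copies of CCAAT, Insig1 held 1, and Hmgcs1 held 3 copies of CCAAT and 1 of CACCCCAC. RefSeq promoters were at hand for 24 members (32 start sites); those of Sqle, Fdps, Fdft1, Stard4, Scd1 and Scd2 were not used here. In the 250 bases before the start, CCAAT was found in 18 of these 32 promoters (56.25%) and in 33.8% of all 32851 promoters. Among sterol enzymes it was found in 12 of 16 promoters. CACCCCAC was found in 2 of the 32 (6.25%), those of Acat2 and Hmgcs1, and in 2.58% of all promoters. A match is a run of letters and not a measured binding site.

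Across the 5 classes the members did not differ in the same direction. In fibroblast-like cells 7 of 30 measured members were lower in KI and 3 were higher, where 8.11% of all genes measured in that class were lower and 17.9% higher. In mural cells 7 of 29 were lower and 0 higher, against 9.17% and 11.9% of all genes. In endothelial-like cells 2 of 30 were higher and 0 lower, against 11% and 6.57%. In type 2-like cells 2 of 28 were higher and 0 lower, against 12.9% and 6.31%. In type 1-like cells 8 of 23 were higher and 1 lower, against 18.5% and 10.6%. The median log2 ratio of the members was -0.17 in fibroblast-like cells (0.09 over all genes), -0.14 in mural cells (0.02), -0.04 in endothelial-like cells (0.05), -0.06 in type 2-like cells (0.06) and 0.22 in type 1-like cells (0.06). The shares of members lay above the background for lower genes in both stromal classes and for higher genes in type 1-like cells, and below it elsewhere. The members were chosen with earlier results of these data known, so these shares are descriptive only. With doublets kept, 4 members were lower in mural cells, and with each library clustered alone, 12 were. In that last setting the mural classes held unlike cells. The WT class included a cluster led by Meg3, Trpc6 and Adcy8, and the KI class had no cluster so led. Hhip was among the leading genes of a KI mural cluster, while the Hhip-led WT cluster was named fibroblast. Without 1 KI cell described with the fatty acid enzymes, 6 members were higher in type 1-like cells. Members with too few UMIs to count were Mvd in mural cells, Ch25h and Elovl6 in type 2-like cells, and Ch25h, Idi1, Dhcr7, Mvd, Sqle, Elovl6 and Stard4 in type 1-like cells.

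**Figure D1:**
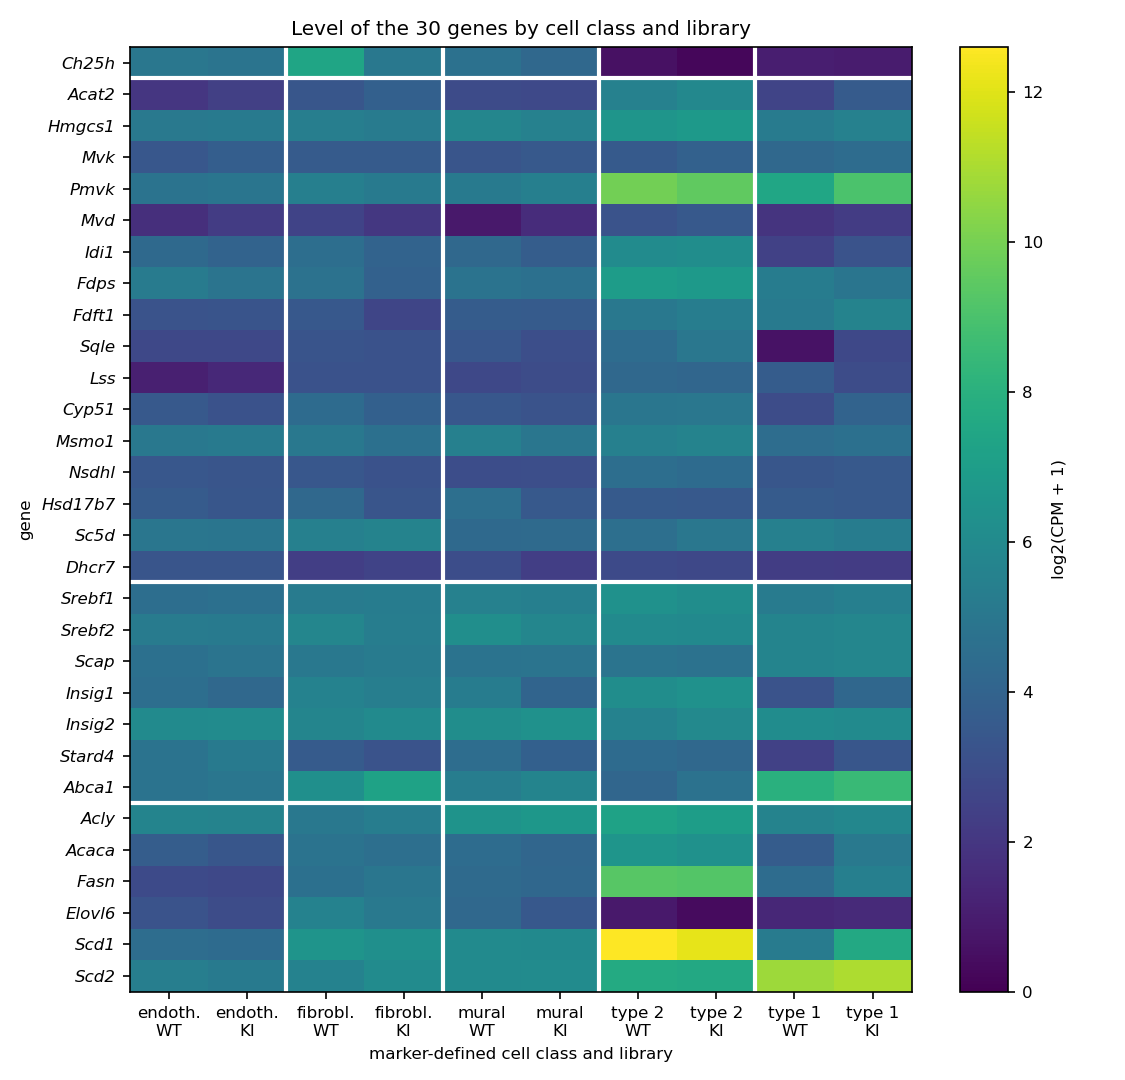
Level of each member as log2(CPM + 1) in the 5 compared classes, with WT beside KI; mural stands for smooth muscle or pericyte-like, and white lines divide Ch25h, sterol enzymes, regulators and fatty acid enzymes. Type 2-like cells hold the highest levels of Scd1, Fasn and Pmvk, type 1-like cells those of Scd2 and Abca1, and Ch25h stands out in WT fibroblast-like cells.

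Ch25h had the largest difference of the members in fibroblast-like cells, where it was read at 709 UMIs in WT and 132 in KI. The levels were 170 CPM [158, 183] in WT and 32.2 CPM [26.9, 38.2] in KI, which is 5.29-fold lower in KI (log2 ratio -2.40 [-2.68, -2.13]). The 2 intervals do not overlap. In WT, 16.7% [14.8, 18.7] of these cells held a Ch25h UMI, and in KI 4.66% [3.53, 6.03] did (exact Clopper-Pearson intervals). With each cell thinned to 1000 UMIs, in the 1118 WT and 1021 KI cells deep enough, the shares were 9.57% and 2.74%. Type 2-like cells, the background class for this gene, had a UMI in 0.667% of WT and 0.211% of KI cells at median depths of 12928 and 14514.5 UMIs, so the fibroblast shares lay above that background. The cell with the most Ch25h held 27 of the 709 WT UMIs and 13 of the 132 KI UMIs, and the top 5 cells had 10.4% of all Ch25h UMIs in WT and 37.1% in KI. Fewer cells transcribing the gene and less RNA per cell cannot be told apart in these sums.

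The lower Ch25h level was found inside each cluster named fibroblast-like that had enough UMIs, and not only in their mixture. An unnamed cluster led by Hhip, Ccl7 and Lum scored highest for fibroblast markers (2.43), with mural markers close (2.13). There Ch25h ran the other way and was higher in KI (1.71 [0.66, 2.89]). The cluster led by Pdgfra, Cxcl14 and Serpina3c (291 WT and 122 KI cells) had the highest level, 442 CPM [398, 490] in WT and 119 CPM [87.5, 157] in KI (log2 ratio -1.90 [-2.36, -1.46]). The cluster led by Rbp4, Fgl2 and Apod (290 and 257 cells) had 180 CPM in WT and 55.9 CPM in KI (-1.68 [-2.08, -1.30]). The smaller cluster led by Dcn, Ccl11 and Lum (96 and 170 cells) had 166 CPM in WT and 6.84 CPM in KI (-4.60 [-6.09, -3.42]), the steepest difference. The large cluster led by Slc7a10, Inmt and Scube2 (600 and 510 cells) had little Ch25h in either library, 16.6 CPM in WT and 3.64 CPM in KI (-2.19 [-3.94, -0.76]), and the shallow cluster led by Lrat had 4 UMIs in WT and 0 in KI. The Pdgfra cluster, the richest in Ch25h, held more of the WT cells, and with clusters weighted alike across libraries the class ratio was -2.03.

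**Figure D2:**
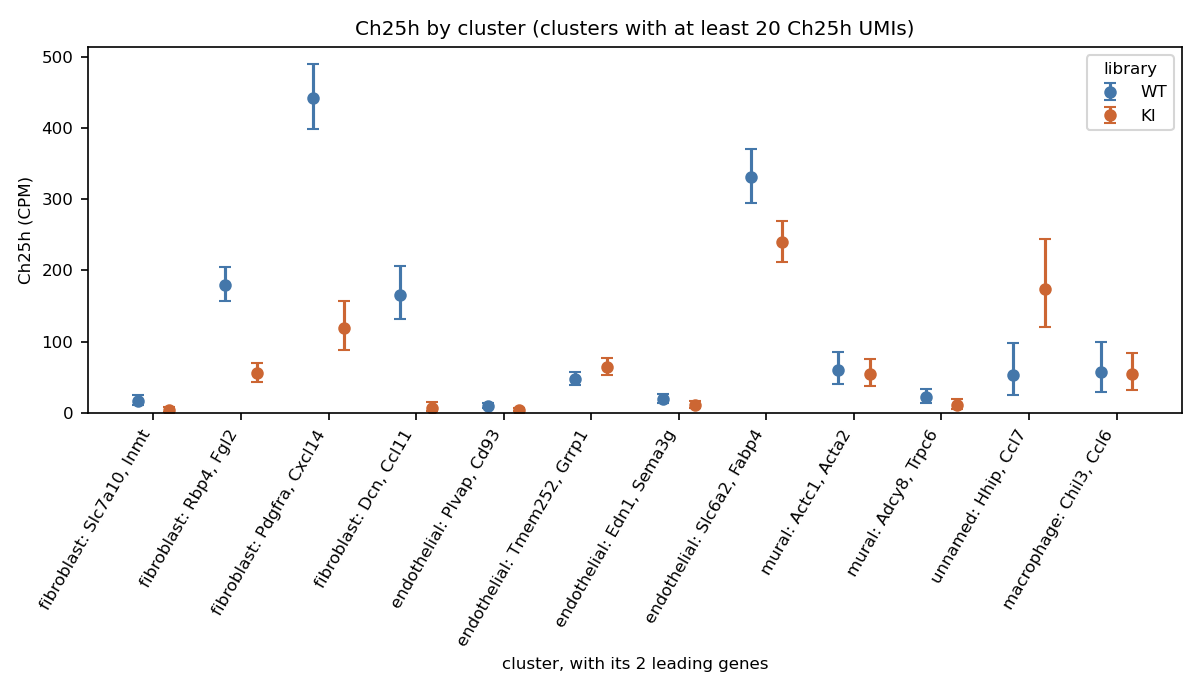
Ch25h level (CPM, linear axis) in WT and KI for each cluster with at least 20 Ch25h UMIs, labelled by its class and 2 leading genes; bars are 95% Poisson intervals that cover counting error. The 4 fibroblast-like clusters are lower in KI without overlap of the intervals, the endothelial-like cluster led by Slc6a2 stays high in both, and the unnamed cluster led by Hhip is higher in KI.

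Outside fibroblasts Ch25h followed another pattern. Endothelial-like cells as a class read 30.8 CPM in WT and 28.2 CPM in KI (-0.12 [-0.31, 0.06]), but the level differed strongly between their clusters. The cluster led by Slc6a2, Fabp4 and Selp, which also had Vwf among its leading genes, held 331 CPM [294, 370] in WT and 239 CPM [213, 269] in KI (-0.47 [-0.70, -0.23]). In the cluster led by Tmem252, Grrp1 and Inhbb the level was 47.4 CPM in WT and 64.4 CPM in KI (0.44 [0.06, 0.82]), and in the cluster led by Plvap and Cd93 it was 9.70 and 4.02 CPM (-1.27 [-2.15, -0.45]). The largest endothelial-like cluster, led by Xpnpep2 and Car4, had 5 UMIs in WT and 2 in KI. The Slc6a2 cluster thus had the highest endothelial level in both libraries. Mural cells read 24.5 CPM in WT and 17.9 CPM in KI (-0.46 [-1.02, 0.10]), most of it from the Acta2-rich cluster (59.97 and 54.3 CPM, -0.14 [-0.87, 0.59]). Macrophage or monocyte-like cells, a known source of 25-hydroxycholesterol, held 12 UMIs in WT (56.7 CPM [29.3, 99.1]) and 19 in KI (54.1 CPM [32.6, 84.5]). T or natural killer-like cells had 0 UMIs in both libraries, where 3 counts would be 16.6 CPM in WT and 16.7 CPM in KI. In order of WT level these classes ran fibroblast-like, macrophage or monocyte-like, endothelial-like and mural, with overlapping intervals for the last 3. In KI the fibroblast-like interval overlapped both that of macrophage or monocyte-like and that of endothelial-like cells, so these were not separated in that order.

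Markers of other cells beside the fibroblast result were as follows. Of the 12 macrophage or monocyte markers, 8 had UMIs in WT and 9 in KI fibroblast-like cells, with a summed level of 130 CPM in WT and 121 CPM in KI. The summed level of the 8 type 2 markers was 742 CPM [716, 768] in WT and 984 CPM [954, 1015] in KI, that of the 10 endothelial markers was 993 CPM in WT and 794 CPM in KI, and that of the 10 fibroblast markers was 11410 and 14933 CPM. Of 7 genes that rise on tissue dissociation, 2 were higher in KI fibroblast-like cells (median 0.09), against 17.9% of all genes. The part of these in the Ch25h difference was not tested. Over 48 sums of cluster and library, the genes whose log2(CPM + 1) followed that of Ch25h most closely among 12656 candidates were Itga5, the fibronectin receptor subunit (Pearson r 0.78), the adhesion molecule Vcam1 (0.74), the tubulin gene Tubb6 (0.72), Mamld1 (0.70) and the long non-coding RNA Pvt1 (0.69). These sums share libraries and cell classes and the correlations are descriptive. In fibroblast-like cells Itga5 read 80.8 CPM in WT and 45.4 CPM in KI, Vcam1 494 and 351 CPM, and Tubb6 77.6 and 43.9 CPM, all smaller differences than that of Ch25h. Mamld1 (22.8 and 25.6 CPM, 0.17) and Pvt1 (17.1 and 16.1 CPM, -0.08) did not pass the limit there. In endothelial-like cells, where Ch25h did not pass the limit, Itga5 (31.9 and 45.4 CPM, 0.51) and Vcam1 (42.4 and 61.6 CPM, 0.54) were higher in KI. Among the other members the highest r was 0.36, for Elovl6.

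Of the regulators and carriers, the set that senses or moves sterol, Abca1 differed most in fibroblast-like cells. This ATP-driven exporter of cholesterol read 318 UMIs in WT and 630 in KI, or 76.4 CPM [68.3, 85.3] and 154 CPM [142, 166], which is 2.01-fold higher in KI (1.01 [0.81, 1.21]). Shares of cells with a UMI were 17.9% in WT and 34.5% in KI, and 8.23% and 14.2% with cells thinned to 1000 UMIs. The difference ran opposite to that of Ch25h in the same cells, and it too was found within clusters. In the Slc7a10 cluster Abca1 was 112 CPM in WT and 218 CPM in KI (0.97 [0.68, 1.26]). In the Rbp4 cluster it was 69.2 and 150 CPM (1.12 [0.75, 1.496]), and in the Dcn cluster 66.8 and 113 CPM (0.76 [0.17, 1.37]). In the Pdgfra cluster the interval included 0 (0.70 [-0.10, 1.49]).

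Abca1 was also higher in KI in both alveolar classes. Type 1-like cells held its highest level, 250 CPM in WT and 373 CPM in KI (0.58 [0.38, 0.77], and 0.44 with doublets kept, short of the limit). There the main cluster, led by Ager and Igfbp2, read 267 CPM in WT and 470 CPM in KI (0.82 [0.61, 1.03]), and the shallow cluster led by Clic3 read 152 and 121 CPM (-0.32 [-1.02, 0.37]). In type 2-like cells it was 16.6 CPM in WT and 26.1 CPM in KI (0.65 [0.29, 1.02]). Mural cells (39.8 and 49.8 CPM, 0.32 [-0.06, 0.71]) and endothelial-like cells (27.0 and 29.5 CPM, 0.13 [-0.06, 0.32]) had ratios whose intervals included 0. The point estimate was above 0 in all 5 classes.

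Insig1, which retains SCAP in the endoplasmic reticulum and is itself an SREBP target, was the member with the largest difference in mural cells. It read 95 UMIs in WT and 45 in KI, or 38.2 CPM [30.9, 46.7] and 15.5 CPM [11.3, 20.7], 2.47-fold lower in KI (-1.31 [-1.85, -0.78]). The lowest ratio was in the cluster led by Spp1, Cox4i2 and Kcnk3, with 61.7 CPM in WT and 16.1 CPM in KI (-1.94 [-2.77, -1.17]). The Acta2-rich cluster (-0.80 [-2.13, 0.48]) and the cluster led by Adcy8 and Trpc6 (-0.67 [-1.68, 0.29]) had intervals that included 0. Stard4, a soluble sterol carrier, was also lower in mural cells, 21.3 CPM in WT and 13.7 CPM in KI (-0.63 [-1.26, -0.01]), a ratio that was -0.37 with doublets kept, short of the limit. Mural cells differed in traces of other cells as well, with the 8 type 2 markers summing to 1621 CPM in WT and 2483 CPM in KI and the 10 endothelial markers to 6912 and 5494 CPM, and the part of these was not tested. The Adcy8 cluster scored second highest for endothelial markers when it was named, and without that cluster the Stard4 ratio was -1.48 and that of Insig1 -1.63. With doublets kept, the Insig1 ratio in mural cells was -0.79, still past the limit.

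Insig1 in the other classes did not share that size of difference. Type 2-like cells held the highest level among compared classes, 70.1 CPM in WT and 81.9 CPM in KI (0.23 [0.04, 0.41]). In fibroblast-like cells it was 46.2 and 40.5 CPM (-0.19 [-0.50, 0.12]) and in endothelial-like cells 22.4 and 17.8 CPM (-0.33 [-0.56, -0.10]). In type 1-like cells, on 15 and 19 UMIs, it was 8.32 CPM in WT and 17.8 CPM in KI (1.09 [0.04, 2.18]), with 4 of the KI UMIs in 1 cell. Without that cell the ratio was 0.81 [-0.33, 1.94], and with doublets kept it was 0.45, short of the limit. Its paralog Insig2 lay between 47.3 and 81.8 CPM in the 5 compared classes of both libraries, with ratios from -0.07 to 0.34. Srebf2, the main activator of sterol genes, was 74.8 CPM in WT and 54.3 CPM in KI mural cells (-0.46 [-0.78, -0.15]) and 53.1 and 40.0 CPM in fibroblast-like cells (-0.41 [-0.71, -0.11]), both short of the 0.5 limit. Srebf1 and Scap had ratios between -0.19 and 0.20 in all 5 classes.

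**Figure D3:**
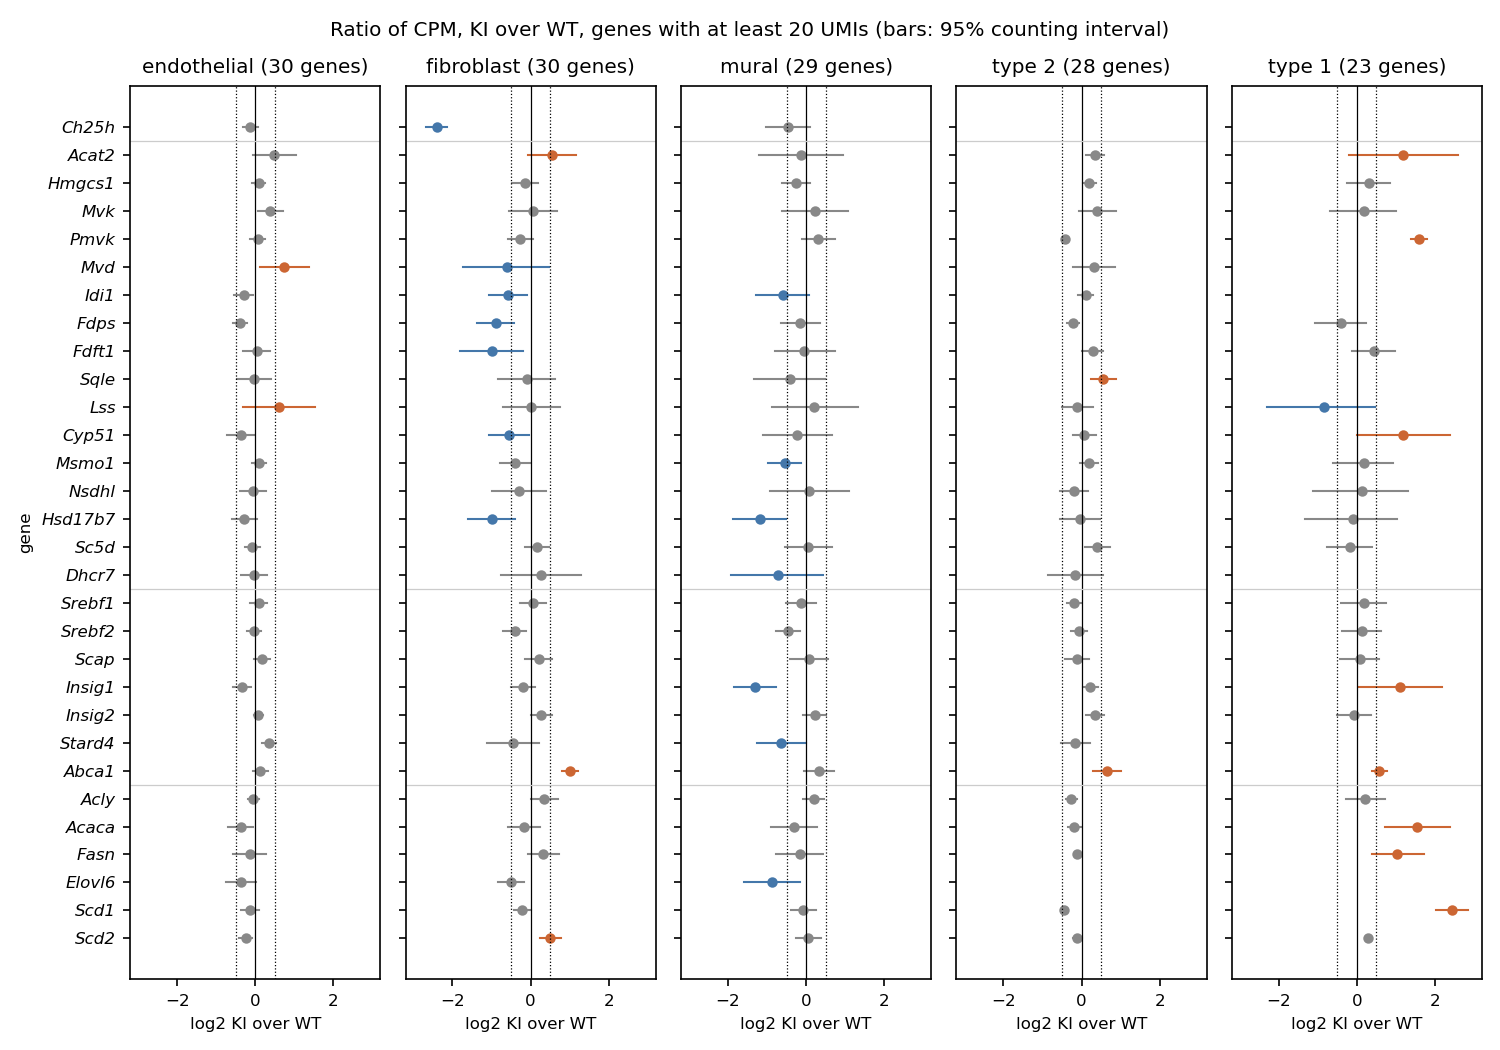
Log2 ratio of KI over WT CPM for each member with at least 20 UMIs in a class, 1 panel per class, with 95% counting intervals; dotted lines mark 0.5 in either direction, blue marks lower and orange higher in KI. Fibroblast-like and mural panels hold 7 lower members each, and the type 1 panel holds 8 higher ones, several with wide intervals.

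In fibroblast-like cells 6 of 16 sterol synthesis enzymes were lower in KI and 1 was higher, against 8.11% and 17.9% of all genes. Their median ratio was -0.28, and 9 did not pass the limit. The summed level of the 16 was 310 CPM [294, 328] in WT and 259 CPM [244, 275] in KI. Hsd17b7, a sterol ketoreductase, read 18.03 CPM in WT and 9.02 CPM in KI (-0.998 [-1.61, -0.41]). Fdft1, which makes squalene, read 10.1 and 5.12 CPM (-0.98 [-1.81, -0.19]), and Fdps, which makes farnesyl diphosphate, 26.2 and 14.1 CPM (-0.89 [-1.37, -0.42]). The isopentenyl isomerase Idi1 was 22.6 CPM in WT and 15.1 CPM in KI (-0.58 [-1.07, -0.10]), and the lanosterol demethylase Cyp51 was 19.95 and 13.7 CPM (-0.55 [-1.06, -0.04]). For Mvd, the mevalonate diphosphate decarboxylase (20 and 13 UMIs, -0.60 [-1.73, 0.48]), and Acat2, the thiolase that opens the pathway (39 and 56 UMIs, 0.54 [-0.07, 1.17]), the interval included 0. Hsd17b7, Fdft1 and Fdps stayed past the limit under the alternatives run, with ratios nearest 0 of -0.60, -0.79 and -0.70. The other 4 calls each ended under some of them: Cyp51 was -0.10 with a stricter cell filter of 500 genes and 5% mitochondrial UMIs, Idi1 -0.43 with equal cluster weights, Mvd -0.27 and Acat2 0.21 as a mean over cells. Fdps shares exon bases with the annotated gene Gm43738 on the same strand, and reads there cannot be told apart by position.

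Among fibroblast-like clusters the Rbp4 cluster had the lowest ratio of summed sterol enzymes, 404 CPM [370, 441] in WT and 288 CPM [260, 319] in KI (-0.49 [-0.68, -0.29]). There Idi1 was 39.7 CPM in WT and 16.1 CPM in KI (-1.30 [-2.11, -0.54]), Fdps 45.9 and 16.9 CPM (-1.44 [-2.22, -0.72]), and Cyp51 44.3 and 23.8 CPM (-0.90 [-1.58, -0.24]). In the Slc7a10 cluster the sum was 281 CPM in WT and 261 CPM in KI (-0.11 [-0.32, 0.10]). In the Pdgfra cluster, where Ch25h was highest, the sum was higher in KI, 258 and 329 CPM (0.35 [0.03, 0.67]). Ch25h was lower in KI in both the Rbp4 and the Pdgfra cluster, while their sterol enzyme sums lay on opposite sides of 0. The enzymes Mvk, Nsdhl and Sc5d stayed between -0.29 and 0.41 in all 5 classes.

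In mural cells 4 of 15 measured sterol enzymes were lower and 0 higher (median -0.14), against 9.17% and 11.9% of all genes. Hsd17b7 was again the largest, 23.3 CPM in WT and 10.3 CPM in KI (-1.18 [-1.87, -0.52]), and -0.89 with doublets kept. It read between -1.21 and -1.17 in the 3 mural clusters. They held 58 WT and 30 KI UMIs of it together, so each cluster ratio rests on few counts. The C4-methyl sterol oxidase Msmo1 was 44.3 and 30.2 CPM (-0.55 [-0.97, -0.13]). Intervals included 0 for Idi1 (18.1 and 12.0 CPM, -0.59 [-1.27, 0.08]) and for Dhcr7, the last step of one branch (17 and 12 UMIs, -0.73 [-1.93, 0.42]). With doublets kept, Msmo1 (-0.40), Idi1 (-0.45) and Dhcr7 (-0.36) did not pass the limit. The sum over the 16 enzymes was 285 CPM [265, 307] in WT and 246 CPM [228, 265] in KI, intervals that overlap by less than 1 CPM. Endothelial-like cells had 2 of 16 higher, against 11% of all genes. Both were at low levels, Mvd (2.22 and 3.70 CPM, 0.74 [0.12, 1.37]) and the lanosterol synthase Lss (1.14 and 1.72 CPM, 0.60 [-0.30, 1.52]). The sums over the 16 enzymes in endothelial-like cells were 248 CPM [241, 256] in WT and 241 CPM [234, 249] in KI.

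Type 2-like cells held the highest sterol enzyme levels of the compared classes, a summed 1534 CPM in WT and 1337 CPM in KI, of which phosphomevalonate kinase (Pmvk) alone gave 978 and 734 CPM. Pmvk was lower in KI by less than the limit (-0.41 [-0.47, -0.36], and -0.13 with the stricter cell filter) and so was Fdps (125 and 108 CPM, -0.21 [-0.36, -0.06]). The other 14 went both ways: the squalene epoxidase Sqle was 20.8 CPM in WT and 30.6 CPM in KI (0.56 [0.23, 0.89]), and the HMG-CoA synthase Hmgcs1 93.2 and 107 CPM (0.20 [0.04, 0.36]). The Sqle ratio was 0.25 with the stricter filter and 0.48 with doublets kept, both short of the limit. That of Hmgcs1 was 0.01 with the stricter filter. The median ratio of the 16 was 0.15. Pmvk thus set the sign of the sum while 10 of 16 enzymes had a ratio above 0.

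Type 1-like cells differed from type 2-like cells in Pmvk. It was 174 CPM [155, 194] in WT and 519 CPM [477, 564] in KI (1.58 [1.38, 1.78]), with a UMI in 32.4% of WT and 47.8% of KI cells (14.0% and 27.4% thinned). Both type 1-like clusters had this difference, 180 and 521 CPM in the main one (1.53 [1.31, 1.76]) and 136 and 515 CPM in the shallow one (1.92 [1.38, 2.49]). Type 2 markers were higher in KI type 1-like cells too: Sftpc, the surfactant protein C gene that defines type 2 cells, was 947 CPM in WT and 4239 CPM in KI, and all 8 type 2 markers, present in both, summed to 1328 and 5434 CPM. Of the 4532 KI Sftpc UMIs, 2288 lay in 1 cell, described with the fatty acid enzymes, and without it KI read 2176 CPM for Sftpc and 2771 CPM for the 8 markers. With that cell included, the 10 endothelial markers summed to 1282 CPM in WT and 2330 CPM in KI type 1-like cells. The 10 fibroblast markers summed to 216 and 663 CPM, and the 12 macrophage or monocyte markers to 215 and 171 CPM. The part of these in the type 1 differences was not tested. Per 1000 Sftpc UMIs there were 183 Pmvk UMIs in WT and 122 in KI type 1-like cells (231 in KI without that cell), against 5.28 and 4.25 in type 2-like cells. Of the other sterol enzymes in type 1-like cells, Cyp51 (12 and 16 UMIs, 1.17 [-0.00, 2.38]) and Acat2 (9 and 12 UMIs, 1.17 [-0.20, 2.59]) were higher and Lss (21 and 7 UMIs, -0.83 [-2.31, 0.46]) lower, with few counts and intervals that reach 0.

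The 2 alveolar classes differed in which desaturase they held. Scd1, a stearoyl-CoA desaturase, read 6182 CPM [6119, 6245] in WT and 4512 CPM [4462, 4563] in KI type 2-like cells (-0.45 [-0.48, -0.43]), in 99.1% and 98.7% of cells (92.9% and 85.6% thinned). Its ratio was -0.502 when scaled by the median ratio of genes with at least 50 UMIs, just past the limit. With the stricter cell filter it was -0.33, nearer 0 than the counting interval. The paralog Scd2 read 207 and 193 CPM there (-0.11 [-0.22, 0.01]). In type 1-like cells Scd2 was the leading member, 1730 CPM [1670, 1792] in WT and 2092 CPM [2006, 2181] in KI (0.27 [0.20, 0.35]). Both genes lie on chromosome 19 of GRCm38, Scd2 at 44293674 to 44306864 on the plus strand and Scd1 at 44394455 to 44407879 on the minus strand. The same pairing of Scd1 with type 2-like and Scd2 with type 1-like cells was seen in both libraries.

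**Figure D4:**
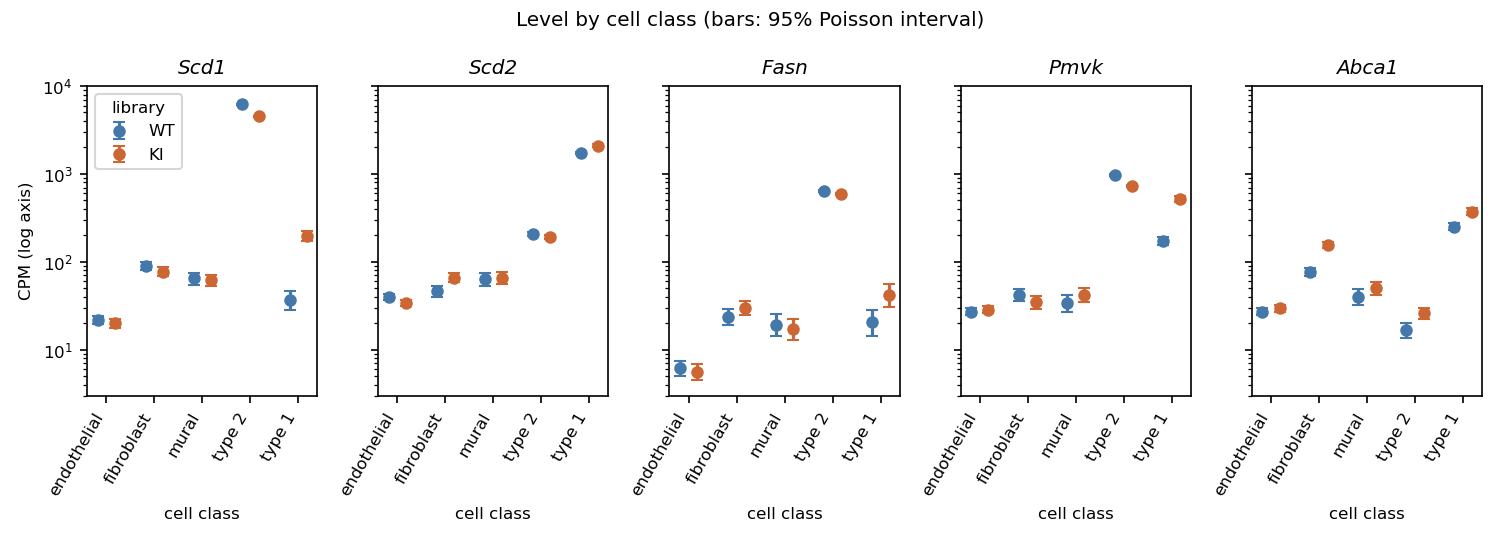
Level (CPM, log axis) of Scd1, Scd2, Fasn, Pmvk and Abca1 in the 5 compared classes for WT and KI, with 95% Poisson intervals that cover counting error. Scd1, Fasn and Pmvk peak in type 2-like cells and Scd2 and Abca1 in type 1-like cells in both libraries, and the type 1 value of Scd1 in KI rests mostly on 1 cell.

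The rest of the fatty acid enzymes in type 2-like cells also read slightly lower in KI, none past the limit. Fatty acid synthase (Fasn) was 640 CPM in WT and 595 CPM in KI (-0.11 [-0.17, -0.04]), the citrate lyase Acly 154 and 129 CPM (-0.26 [-0.40, -0.13]), and the acetyl-CoA carboxylase Acaca 93.5 and 82.5 CPM (-0.18 [-0.35, -0.01]). All 5 measured enzymes had a ratio under 0, with a median of -0.18 against 0.06 for all genes. The summed level of the 6 enzymes, Scd1 included, was 7279 CPM in WT and 5511 CPM in KI. Scd1 alone gave 36884 of the 43427 WT UMIs in that sum and 30796 of the 37614 KI UMIs. The 10 endothelial markers summed to 607 CPM in WT and 328 CPM in KI type 2-like cells, and their part in these differences was not tested. The elongase Elovl6 was all but missing, with 5 UMIs in WT and 2 in KI. It was read in fibroblast-like cells instead, at 46.2 CPM in WT and 32.7 CPM in KI (-0.50 [-0.83, -0.17], just inside the limit), and in mural cells at 18.1 and 9.97 CPM (-0.86 [-1.59, -0.16], and -0.21 with the stricter cell filter).

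In type 1-like cells 3 of 5 measured fatty acid enzymes were higher in KI, against 18.5% of all genes, and 1 cell held most of the UMIs behind the largest ratio. Scd1 was 36.6 CPM in WT and 196 CPM in KI (2.42 [2.02, 2.85]), but 183 of its 210 KI UMIs lay in 1 cell of the shallow cluster, which had 37833 UMIs, 2288 of them Sftpc and 180 Ager, the type 1 marker. Without that cell the Scd1 ratio was -0.48, and that of Fasn (20.5 and 42.1 CPM, 1.04 [0.38, 1.70]) was 0.35. The Scd1 level in type 1-like cells was over 20 times lower than in type 2-like cells; the part of free RNA in it was not tested. Acaca did not depend on that cell, reading 11.6 CPM in WT and 33.7 CPM in KI (1.53 [0.72, 2.38]) and 1.54 without it. For Pmvk the ratio was 1.54 without it, for Abca1 0.61 and for Insig1 0.81.

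Stromal and endothelial-like cells had low levels of the desaturases. In fibroblast-like cells Scd1 was 89.7 CPM in WT and 77.3 CPM in KI and Scd2 46.6 and 66.1 CPM (0.50 [0.23, 0.78], barely past the limit), both over 20 times below the class with the highest level. The Scd2 difference was present in the Rbp4 cluster (59 and 124 UMIs, 1.05 [0.59, 1.52]) and in the Dcn cluster (28.3 and 68.4 CPM, 1.27 [0.41, 2.23]) while in the Slc7a10 cluster the ratio was -0.29 [-0.77, 0.19]. With clusters weighted alike the class ratio was 0.23, and as a mean over cells 0.0880, both short of the limit. With the stricter cell filter it was 0.797, above the counting interval. Scd2 shares exon bases with the annotated microRNA gene Mir5114. In mural cells the Scd1 ratio of -0.07 covered a lower level in the Acta2-rich cluster (120 and 22.6 CPM, -2.41 [-3.32, -1.58]) and a higher one in the Adcy8 cluster (61.3 and 128 CPM, 1.06 [0.62, 1.51]). Single cells carried much of both, with 51 of the 64 WT UMIs of the Acta2-rich cluster and 47 of the 136 KI UMIs of the Adcy8 cluster in 1 cell each. All 6 fatty acid enzymes had ratios below 0 in endothelial-like cells, between -0.37 and -0.05.

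Other pathway genes came from lists chosen with earlier results of these data known. Npc2, the lysosomal sterol carrier, led the list of sterol uptake and SREBP processing in type 2-like cells at 5599 CPM in WT and 5608 CPM in KI. Of the LXR and efflux genes, 3 of 8 were higher in endothelial-like cells, Nr1h3, Abcg1 and Mylip, against 11% of all genes. The median of the list there was 0.36, and its summed level was 485 CPM in WT and 494 CPM in KI. In the other classes the median was -0.02 in fibroblast-like and in mural cells, -0.04 in type 2-like and -0.12 in type 1-like cells. The ubiquitin ligase gene Mylip, an LXR target, was 55.8 and 79.9 CPM (0.52 [0.40, 0.64]) in endothelial-like cells. It was also higher in fibroblast-like cells (0.89 [0.46, 1.33]), and the LXR gene Nr1h3 was 90.5 and 130 CPM in mural cells (0.52 [0.28, 0.76]). The list went both ways in these 2 classes. In fibroblast-like cells 1 of 7 measured genes was higher and 1 lower (-1.38 to 0.89), against 17.9% and 8.11% of all genes. In mural cells 2 of 8 were higher and 1 lower (-0.99 to 0.72), against 11.9% and 9.17%. In endothelial-like cells 5 of 7 dissociation genes were higher too (median 0.61), and their part in these differences was not tested. Apoe, the lipoprotein gene that leads the list in fibroblast-like cells, was 3397 CPM in WT and 2697 CPM in KI (-0.33).

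Of the other fatty acid genes, the elongase Elovl1 was lower in KI fibroblast-like cells (85.8 and 54.4 CPM, -0.66 [-0.91, -0.41]) and the regulator of acetyl-CoA carboxylase Mid1ip1 was higher in type 2-like cells (166 and 236 CPM, 0.51 [0.39, 0.62]). In type 1-like cells the elongase Elovl5 (193 and 275 CPM, 0.51 [0.28, 0.74]) and Apoe (76.5 and 178 CPM, 1.22 [0.89, 1.54]) were higher, and the sterol isomerase Ebp (108 and 69.2 CPM, -0.64 [-1.04, -0.24]) and Arl4c, an LXR-induced GTPase (144 and 83.2 CPM, -0.79 [-1.15, -0.43]), were lower. Of the 8 oxysterol or ester genes, 5 were measured in fibroblast-like cells. Of these 0 were higher and 0 lower, against 17.9% and 8.11% of all genes. Cyp7b1, the hydroxylase that breaks down 25-hydroxycholesterol, was 57.0 CPM in WT and 55.4 CPM in KI there.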

How the data were processed

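The deposited files are 10x count matrices of unique molecular identifiers per gene and barcode. Per the submitters' processing notes, Cell Ranger 2.0, Seurat 2.3.4, R 3.5.3 and mm10 were used, while the file headers give software version 3.0.2. Barcodes with at least 200 genes and at most 10% mitochondrial UMIs were kept. Scrublet scores in scanpy 1.11.5 marked 877 WT and 665 KI doublets at an expected rate of 0.8% per 1000 barcodes, because the automatic threshold marked 345 and 1. Both libraries were clustered together (leidenalg 0.10.2, resolution 1) without the members and other pathway genes, giving 28 clusters. Of these, 23 were named from at least 3 detected markers and 5 stayed unnamed. Intervals are exact Poisson, conditional binomial and Clopper-Pearson (scipy 1.17.1), and the ratio script was tested on simulated data.

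Members were named with values at 20 UMIs and a log2 ratio past 0.5 or a level of 100 CPM, and other pathway genes at 50 CPM and a ratio past 0.5, or when most abundant in their list. Further members are named for comparison between classes. Names outside this rule, the cluster values of named genes included, were chosen after values were seen. The members and lists were chosen with earlier results of these data known. Some genes of the other pathway lists are not reported here. Gene positions are from GENCODE M21, whose identifiers matched 31011 of the 31053 genes. Alternatives changed the doublet, cell and UMI filters, resolution, joint clustering, cluster weights, averaging, scaling, low-depth clusters and cell thinning.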

Additional observations from a re-analysis of the deposited data

Results flagged for a closer look

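Insig1 had ratios past the limit on opposite sides of 0, with intervals clear of 0, in 2 classes, -1.31 in mural cells and 1.09 in alveolar type 1-like cells. The difference between the classes was not tested. Type 2-like cells, above 0, and endothelial-like cells, below 0, also had intervals clear of 0, with ratios short of the limit. The type 1 value rests on 15 WT and 19 KI UMIs, 4 of them in 1 KI cell. It was 0.81 [-0.33, 1.94] without that cell and 0.45 with doublets kept, and the share of cells with a UMI, thinned to equal depth, was lower in KI by 0.875 percentage points.

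Ch25h differed between clusters in the same way, and this too was not tested. It was lower in KI in the endothelial-like cluster led by Plvap (-1.27) and in the fibroblast-like clusters led by Slc7a10 (-2.19), Rbp4 (-1.68), Pdgfra (-1.90) and Dcn (-4.60). It was higher in KI in an unnamed cluster led by Hhip, Ccl7 and Lum (62 WT and 53 KI cells), with 10 and 34 UMIs (1.71). That cluster scored highest for fibroblast markers, with mural markers close.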

How the results depend on the processing

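No paired analysis was possible because each group is 1 library. Of 291 recomputed ratios of 38 member and class pairs, 263 stayed inside the counting interval, 22 left it and 6 changed sign. Those 6 were in type 1-like cells: Fasn at -0.23 as a mean over cells, and Scd1 at -0.0389 with the stricter cell filter, -0.70 with libraries clustered alone, -0.0633 as a mean over cells, -0.0688 without low-depth clusters and -0.48 without the KI cell richest in it. That last alternative, and leaving out the Adcy8 mural cluster, were chosen after seeing the data. Thinning turned the difference in share of cells for Mvd in fibroblast-like cells (0.221 percentage points) and, in type 1-like cells, for Insig1 (-0.875), Fasn (-1.06) and Scd1 (0.110). The Ch25h ratio in fibroblast-like cells was -2.03 with equal cluster weights. In the counts of members, the stricter filter gave 1 lower in endothelial-like, 5 higher in fibroblast-like (2 of them sterol enzymes), 1 higher in mural (2 sterol enzymes lower) and 4 higher in type 2-like cells. Keeping doublets gave 1 higher and 4 lower in mural cells (1 sterol enzyme lower) and 2 lower in type 1-like cells. Clustering libraries alone gave 1 higher and 12 lower in mural cells, 3 lower in type 1-like cells and 0 sterol enzymes higher in fibroblast-like cells, and resolution 0.5 gave 11 lower in mural cells. Median scaling gave 1 higher in fibroblast-like cells (0 sterol enzymes) and 1 lower in type 2-like cells. A minimum of 50 UMIs gave 1 higher in endothelial-like cells and 5 higher and 0 lower in type 1-like cells, and a minimum of 1 UMI gave 1 higher in mural cells (1 sterol enzyme) and 2 lower in type 2-like cells. Without low-depth clusters 5 were higher in type 1-like cells. The cause of these shifts was not tested. Depth limits most sterol enzymes, which had under 100 UMIs in mural and type 1-like cells.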

Other observations

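Classes with fewer than 100 cells gave further levels of members, with no comparison drawn. Elovl6 read 177 CPM [121, 249] in WT and 66.7 CPM [34.4, 116] in KI T or natural killer-like cells, on 32 and 12 UMIs. In these cells the 8 type 2 markers summed to 469 CPM in WT and 9677 CPM in KI. Hmgcs1 read 79.7 CPM in WT and 135 CPM in KI airway-like cells, on 84 and 104 UMIs.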
